A study of Homo sapiens with 8 samples.

Results

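Expression of the genes that carry out V(D)J recombination and classical non-homologous end joining was described in cells labelled as 1 leukaemia line, with and without a glucocorticoid. The 10 genes were RAG1, RAG2, DNTT, LIG4, XRCC4, DCLRE1C, PRKDC, XRCC5, XRCC6 and NHEJ1, taken by symbol from the platform annotation, and all 10 were found among 17881 transcript clusters, with 1 cluster each. Of these clusters, 8 carried 1 gene symbol. The XRCC5 cluster is also annotated to LINC01963 and the NHEJ1 cluster to SLC23A3. Cells labelled RS4;11, a line from B-cell precursor acute lymphoblastic leukaemia with an MLL fusion, had received a control shRNA vector or an shRNA against BTG1 by transduction. They were kept for 8 h in vehicle or in the synthetic glucocorticoid prednisolone. Each of the 4 combinations was measured on 2 Affymetrix exon arrays, 8 in all. The series' design compares the response to prednisolone with and without BTG1 knockdown. All groups carry the same cell line label and an shRNA vector, and neither the prednisolone dose nor the number of clones is stated in the labels. No label says that paired arrays came from separate cultures, so p-values measure the spread between arrays, which may be technical.

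V(D)J recombination assembles antigen receptor genes in developing B and T cells. The RAG1 and RAG2 proteins cut DNA beside the gene segments and leave hairpin-sealed coding ends. The Ku heterodimer of XRCC6 (Ku70) and XRCC5 (Ku80) holds the ends and recruits the kinase DNA-PKcs, encoded by PRKDC, which activates the Artemis nuclease, encoded by DCLRE1C, to open the hairpins. Terminal deoxynucleotidyl transferase, encoded by DNTT, adds untemplated nucleotides at the junction, and DNA ligase IV (LIG4) seals it with XRCC4 and XLF (NHEJ1). RAG1, RAG2 and DNTT are largely restricted to lymphoid precursors, whereas the repair factors are used in most cell types.

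The upstream sequences of RAG2, DNTT and LIG4 are shown because DNTT and RAG2 had the largest called falls between the shRNAs, under vehicle and prednisolone, and LIG4 the only called rise, and because they contrast in base composition. Each line gives the 250 bases before the RefSeq start on GRCh38.p14, 5′ to 3′ on the gene's strand, with searched motifs in capitals. RAG2 is at chr11:36598237-36598486, minus strand. DNTT is at chr10:96304184-96304433, plus strand. LIG4 is at chr13:108218350-108218599, minus strand, the first of 5 windows that the table lists for it.
RAG2: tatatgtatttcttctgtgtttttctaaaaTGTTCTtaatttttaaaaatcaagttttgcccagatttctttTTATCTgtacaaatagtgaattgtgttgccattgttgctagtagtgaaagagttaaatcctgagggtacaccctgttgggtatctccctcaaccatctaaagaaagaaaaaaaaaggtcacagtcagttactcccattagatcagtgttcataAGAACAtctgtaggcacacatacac
DNTT: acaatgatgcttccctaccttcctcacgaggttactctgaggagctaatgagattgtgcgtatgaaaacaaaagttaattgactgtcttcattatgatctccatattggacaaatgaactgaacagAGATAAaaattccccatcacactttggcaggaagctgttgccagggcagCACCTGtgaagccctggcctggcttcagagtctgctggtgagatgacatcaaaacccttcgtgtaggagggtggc
LIG4: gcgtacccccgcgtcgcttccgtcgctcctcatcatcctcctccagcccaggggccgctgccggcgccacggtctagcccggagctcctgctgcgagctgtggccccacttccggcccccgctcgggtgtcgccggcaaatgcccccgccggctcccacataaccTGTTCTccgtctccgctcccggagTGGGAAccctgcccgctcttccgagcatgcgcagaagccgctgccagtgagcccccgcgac
The RAG2 window was 34.0% G and C with 0 CpG dinucleotides, the DNTT window 46.4% with 3 CpG, and the LIG4 window 72.0% with 28 CpG. Over the first window of each of 27305 genes the median was 58.0% G and C and 11 CpG. Windows were found for 8 of the 10 members, and PRKDC and XRCC5 had no entry.

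Motifs were searched on both strands as exact letters, and a match is a description of letters, not of binding. The full glucocorticoid response element, an inverted repeat of the hexamer AGAACA with a spacer of 3 bases, was found in 0 of the 8 member windows and in 0.00366% of all windows. The hexamer AGAACA alone, which lies inside the full element, was in the RAG2 window 220 and 25 bases before the start and in the LIG4 window 85 bases before it, and in 12.4% of all windows. The E-box CAGGTG, the letters bound by E proteins, was in the DNTT window 75 bases before the start and in 17.5% of all windows. The GATA letters AGATAA stood 178 bases before the RAG2 start and 124 bases before the DNTT start, against 9.37% of all windows. The Ikaros core TGGGAA was found in the LIG4 window 61 bases before the start and in the DCLRE1C window 67 bases before it, and in 21.1% of all windows. The GC box GGGCGG was in 5 of the 8 member windows (RAG1, XRCC4, DCLRE1C, XRCC6 and NHEJ1) and in 42.3% of all. The TATA letters TATAAA were in the DCLRE1C window, 165 bases before the start, and in 11.1% of all windows.

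The arrays labelled BTG1 shRNA did not carry the marker profile of a B-cell precursor line. BTG1 itself (a cluster shared with LINC01619) stood at 9.34 and 9.36 with vehicle and 10.51 and 10.70 with prednisolone on control arrays, against 7.15, 7.42, 8.14 and 7.80 on the arrays labelled BTG1 shRNA, log2 scale. Summed over 9 measured B-lineage markers, the log2 level was 71.0 to 77.8 on the control arrays and 36.8 to 38.9 on the arrays labelled BTG1 shRNA. For 15 T-lineage markers the sums were 61.8 to 71.4 and 114.2 to 117.3. CD3D, CD3E and CD3G, chains of the T-cell receptor complex, lay between 3.05 and 4.45 on the control arrays and between 10.52 and 11.64 on the others. With limma, 11 of the 15 T-lineage markers were higher under each treatment and 4 did not pass. Of the 9 B-lineage markers 8 were lower under vehicle and 7 under prednisolone. All clusters called were 14.7% and 17.5%. The T-lineage profile was partial, since CD2, CD4, CD8A and the cluster of PTCRA overlapped between the 2 sets of arrays. Of 7 myeloid and 4 erythroid or platelet markers, 0 differed between the shRNAs with limma under either treatment, and of 7 stromal and epithelial markers only KRT18 did. The shRNA therefore cannot be told apart from a difference in lineage, and every comparison between shRNAs below is one between these 2 sets of arrays. The first control vehicle array also had a narrower spread of values than the rest, with an interquartile range of 2.95 against 3.39 to 3.80, and the control vehicle pair differed most, by a median of 0.44 per cluster against 0.18 to 0.25 in the other pairs.

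**Figure D1:**
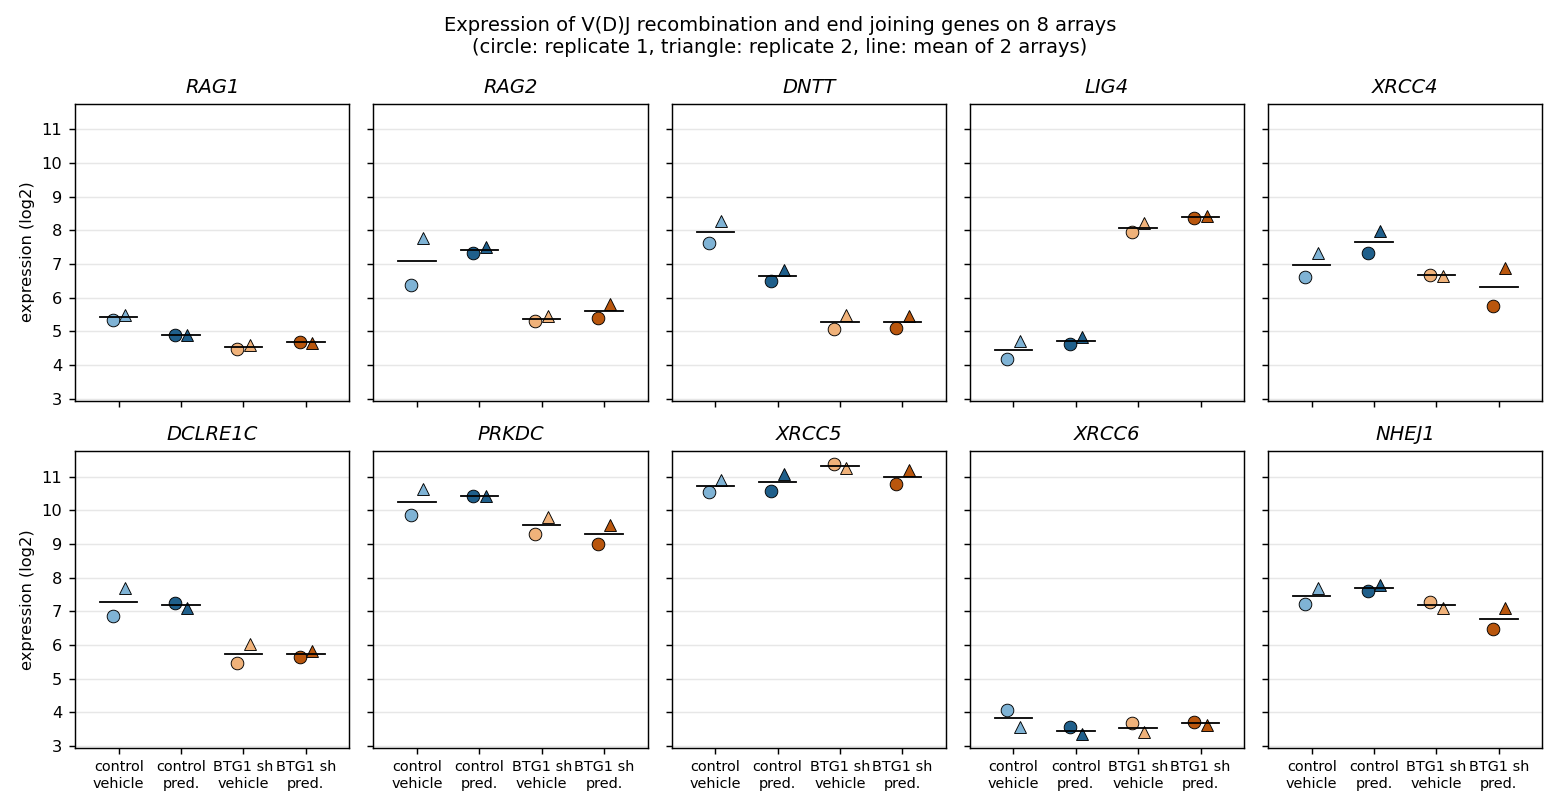
Log2 expression of the 10 genes on each of the 8 arrays, one panel per gene, with groups on the horizontal axis; circles and triangles are replicates 1 and 2 and lines the mean of 2 arrays. LIG4 lies between 4.18 and 4.82 on the control arrays and between 7.96 and 8.42 on the arrays labelled BTG1 shRNA, while DNTT descends from 8.27 at its highest to 5.08 at its lowest.

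Between the shRNAs, 5 of the 10 genes passed the test under vehicle and 5 under prednisolone. LIG4 was higher on the arrays labelled BTG1 shRNA under both treatments, and RAG2, DNTT and DCLRE1C were lower under both. RAG1 was called lower with vehicle and PRKDC with prednisolone. The test was limma with Benjamini-Hochberg adjustment over all clusters at a threshold of 0.05, and it called 14.7% of all clusters under vehicle and 17.5% under prednisolone. The member counts were thus 1 higher and 4 lower in each, where all clusters gave 8.46% higher and 6.21% lower under vehicle, and 10% higher and 7.51% lower under prednisolone. The median log2 difference of the 10 genes was -0.50 under vehicle and -1.02 under prednisolone, beside -0.15 and 0.04 over all clusters. The paired arrays did not overlap for 7 of 10 members under vehicle, against 58.8% of all clusters, and for 9 of 10 under prednisolone, against 49.9%. Past 2-fold were 4 members under vehicle, against 14.2% of all clusters, and 6 under prednisolone, against 15.8%. With all 4 control arrays set against all 4 labelled BTG1 shRNA, RAG1, RAG2, DNTT, LIG4, DCLRE1C and PRKDC did not overlap, 6 of 10 genes against 24.2% of all clusters. In bulk RNA, fewer cells of a type and less RNA per cell cannot be told apart. Leaving out 1 array at a time lowered the number of called members in some fits under each treatment. The number called over all clusters also changed between these fits. Each of them leaves 1 array in a group, so the change is not read as particular to these genes.

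RAG2 was lower on the arrays labelled BTG1 shRNA under both treatments, and RAG1 passed the test under vehicle. RAG2, the partner that the recombinase needs for activity and that reads a histone mark of active chromatin, stood at 6.38 and 7.78 with vehicle and 7.34 and 7.49 with prednisolone on control arrays. On the arrays labelled BTG1 shRNA it stood at 5.31 and 5.45 with vehicle and at 5.38 and 5.81 with prednisolone. All 4 were below the lowest control array, which was the first control vehicle array. RAG2 was 3.25-fold lower under vehicle (log2 -1.70, SE 0.41, limma adjusted p = 0.0307) and 3.52-fold lower under prednisolone (log2 -1.82, adjusted p = 0.0202). The call held in 10 of 16 alternative settings under vehicle and in 11 of 16 under prednisolone. Its adjusted p reached 0.143 under vehicle without the first array labelled BTG1 shRNA with vehicle and 0.125 without the second. Without either of the control prednisolone arrays it was 0.0506. Under prednisolone it was 0.0677 and 0.111 without the first or second control prednisolone array, and 0.120 and 0.0548 without the first or second array labelled BTG1 shRNA with prednisolone.

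RAG1 encodes the catalytic subunit that cuts DNA. On control arrays it measured 5.34 and 5.49 with vehicle and 4.88 and 4.89 with prednisolone. The values were 4.47 and 4.60 with vehicle and 4.69 and 4.67 with prednisolone on the arrays labelled BTG1 shRNA. The groups therefore stood in the order control vehicle, control prednisolone, BTG1 shRNA with prednisolone and BTG1 shRNA with vehicle. No neighbours overlapped, but no step between neighbours in that order passed the test. Its percentile within an array was 44.6 to 53.8 on the control arrays and 38.6 to 42.4 on the others, so RAG1 was near the middle of all clusters or below it. RAG1 was 1.84-fold lower on the arrays labelled BTG1 shRNA under vehicle (log2 -0.88, SE 0.17, limma adjusted p = 0.0105). Under prednisolone its difference was -0.21 (limma adjusted p = 0.581, 95% interval -0.59 to 0.18). The change between those differences was 0.67 (SE 0.23, limma adjusted p = 0.497), so the sizes were not shown to differ. The vehicle call was lost without either of the arrays labelled BTG1 shRNA with vehicle, at an adjusted p of 0.102 without the first and 0.0717 without the second, and at 0.0681 in a fit of the compared groups alone.

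The genes directly beside the recombinase pair on chromosome 11, TRAF6 and IFTAP, were not called between the shRNAs. TRAF6, an adaptor of innate immune signalling beside RAG1, lay between 6.52 and 7.23 over the 8 arrays and differed by 0.14 under vehicle (limma adjusted p = 0.689) and 0.05 under prednisolone (limma adjusted p = 1). IFTAP, beside RAG2, lay between 2.58 and 3.10 and was not called in either. Its percentile within an array was 3.1 to 8.6, so a fall could hardly have shown. Of the 4 genes listed around the locus, PRR5L was called lower under vehicle (log2 -1.06, limma adjusted p = 0.0438), a call held in 6 of 15 alternative settings, and 0 were called under prednisolone.

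DNTT showed the deepest fall of the 10 genes between the shRNAs under vehicle. It stood at 7.62 and 8.27 on the control vehicle arrays, 6.49 and 6.83 with prednisolone, 5.08 and 5.48 on the arrays labelled BTG1 shRNA with vehicle, and 5.09 and 5.46 with prednisolone. The control vehicle pair was highest, the control prednisolone pair lay between, and the 4 arrays labelled BTG1 shRNA were lowest, their vehicle and prednisolone pairs overlapping. DNTT was 6.33-fold lower on the arrays labelled BTG1 shRNA under vehicle (log2 -2.66, SE 0.28, limma adjusted p = 0.000665) and 2.60-fold lower under prednisolone (log2 -1.38, SE 0.28, limma adjusted p = 0.0133). The vehicle call held in all 16 alternative settings. The prednisolone call was lost at an adjusted p of 0.0992 without the second control prednisolone array and at 0.0935 without the first array labelled BTG1 shRNA with prednisolone. The neighbour BLNK, an adaptor of pre-B-cell receptor signalling and itself among the B-lineage markers, fell from 5.95 and 6.55 on control vehicle arrays to 4.02 and 3.60 on the arrays labelled BTG1 shRNA with vehicle (log2 -2.44, limma adjusted p = 0.000785). OPALIN on the other side of DNTT, a myelin gene, differed by -0.34 under vehicle (limma adjusted p = 0.332). These neighbours were looked at after their values were known.

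Of the genes for Ku, DNA-PKcs and Artemis, DCLRE1C passed the test under both treatments and PRKDC under prednisolone, both lower on the arrays labelled BTG1 shRNA, and neither Ku gene passed. XRCC5 stood at 10.55, 10.89, 10.57 and 11.09 on the control arrays and at 11.36, 11.25, 10.78 and 11.19 on the arrays labelled BTG1 shRNA. It lay in the top percentiles of every array, from 99.0 to 99.6, and differed by 0.59 under vehicle (limma adjusted p = 0.176) and 0.16 under prednisolone (limma adjusted p = 0.913). Neither passed, although the 2 vehicle groups did not overlap. XRCC6 lay between 3.35 and 4.08 on all 8 arrays, at percentiles 21.0 to 26.2, so its cluster was dim in every group. Its differences of -0.28 under vehicle and 0.22 under prednisolone were not called (limma adjusted p = 0.401 and 0.723), and no detection call was used to say whether such a level was above background.

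PRKDC was at 9.86 and 10.63 with vehicle and 10.41 and 10.41 with prednisolone on control arrays, and at 9.30, 9.81, 8.99 and 9.57 on the arrays labelled BTG1 shRNA. All 4 of the latter lay below all control arrays, the nearest values being 9.81 and 9.86. The difference was -1.13 under prednisolone (SE 0.32, limma adjusted p = 0.0499), 2.19-fold lower, and -0.69 under vehicle (limma adjusted p = 0.208, 95% interval -1.44 to 0.06). The prednisolone call sat at the threshold and held in 9 of 16 alternative settings. With single arrays left out its adjusted p ran from 0.0214 to 0.277, and it stayed below the threshold only without either of the control vehicle arrays. DCLRE1C, the hairpin-opening nuclease, was at 6.87, 7.68, 7.24 and 7.11 on the control arrays and at 5.46, 6.03, 5.65 and 5.83 on the arrays labelled BTG1 shRNA. The lowest control array, at 6.87, was above the highest of the others, at 6.03. DCLRE1C was 2.89-fold lower under vehicle (log2 -1.53, SE 0.30, limma adjusted p = 0.0134) and 2.71-fold lower under prednisolone (log2 -1.44, limma adjusted p = 0.0151). Under vehicle the call was lost at 0.0980 without the first array labelled BTG1 shRNA with vehicle and at 0.0519 with array medians centred. Under prednisolone it was lost without any 1 of the 4 prednisolone arrays, at 0.0573 to 0.0915.

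In the ligation step LIG4 was higher on the arrays labelled BTG1 shRNA, and neither XRCC4 nor NHEJ1 passed the test. On control arrays LIG4 measured 4.18 and 4.72 with vehicle and 4.63 and 4.82 with prednisolone. It measured 7.96 and 8.20 on the arrays labelled BTG1 shRNA with vehicle and 8.37 and 8.42 with prednisolone. The lowest array labelled BTG1 shRNA stood more than 3 log2 units above the highest control array. LIG4 moved from percentiles 27.7 to 45.6 on the control arrays to 84.4 to 89.9 on the others. It was 12.4-fold higher under vehicle (log2 3.64, SE 0.23, limma adjusted p = 5.21e-05) and 12.8-fold higher under prednisolone (log2 3.67, SE 0.23, limma adjusted p = 4.31e-05), and both calls held in all 16 alternative settings. ABHD13, its neighbour on chromosome 13, ranged from 5.51 to 7.08 on the control arrays and from 6.78 to 7.54 on the others. It differed by 1.31 under vehicle (limma adjusted p = 0.0499) and by 0.29 under prednisolone (limma adjusted p = 0.835). ARGLU1, the nearest gene with its own cluster on the other side, was not called in either. ACBD7 near DCLRE1C was called higher under vehicle (log2 1.78, limma adjusted p = 0.0174), opposite to DCLRE1C, and was not called under prednisolone. SUV39H2 beside DCLRE1C, and CEBPD and MCM4 beside PRKDC, were not called in either.

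XRCC4, the scaffold that stabilises ligase IV, stood at 6.61 and 7.33 on control vehicle arrays, 7.32 and 7.99 with prednisolone, 6.68 and 6.65 on the arrays labelled BTG1 shRNA with vehicle, and 5.76 and 6.88 with prednisolone. The vehicle groups overlapped and the prednisolone groups did not. Its difference was -0.30 under vehicle (limma adjusted p = 0.609) and -1.33 under prednisolone (limma adjusted p = 0.0689), so neither passed. NHEJ1 was at 7.20, 7.68, 7.61 and 7.77 on the control arrays and at 7.27, 7.10, 6.46 and 7.10 on the arrays labelled BTG1 shRNA. It differed by -0.26 under vehicle (limma adjusted p = 0.499) and by -0.91 under prednisolone (limma adjusted p = 0.0548), and neither passed. SLC23A3, the other gene of that cluster, has a cluster of its own that lay between 3.39 and 4.24 over the 8 arrays. XRCC4 under prednisolone passed in 5 of 16 alternative settings and NHEJ1 in 7 of 16.

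**Figure D2:**
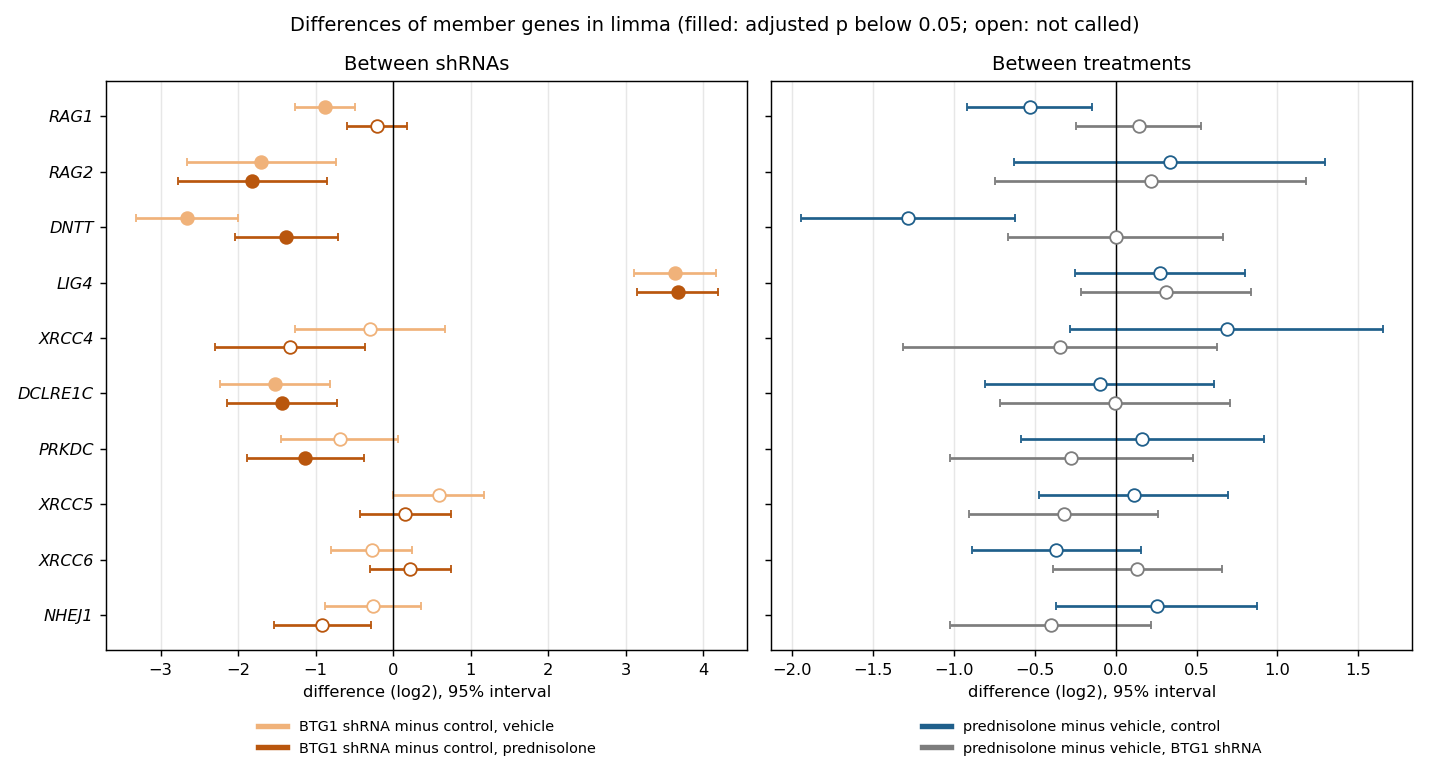
Log2 differences of the 10 genes in limma with 95% intervals, between shRNAs on the left and between treatments on the right; filled points passed the adjusted threshold of 0.05 and open points did not. LIG4 stands alone at 3.64 and 3.67 on the left, and DNTT has the largest prednisolone difference on the right, -1.28 on control arrays and -0.00 on the arrays labelled BTG1 shRNA.

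Prednisolone against vehicle changed none of the 10 genes past the threshold on the control arrays. The lowest adjusted p was that of DNTT, which was 2.44-fold lower with prednisolone (log2 -1.28, SE 0.28, unadjusted p = 0.00228, limma adjusted p = 0.0904, 95% interval -1.95 to -0.62). With a term for the replicate number added to the fit, DNTT did pass (limma adjusted p = 0.0094). That was 1 of 16 alternative settings, and DNTT was not called in the others. RAG1 had the second largest gap in relation to its error, at -0.53 (SE 0.17, unadjusted p = 0.0134, limma adjusted p = 0.214). These were the 2 genes whose prednisolone and vehicle arrays did not overlap, 2 of 10 against 41.7% of all clusters, and also the 2 with an unadjusted p below 0.05. limma called 0 of 10 members and 1.52% of all clusters, and DNTT was the 1 member past 2-fold, the cut-off in the series' design, against 5.26% of all clusters. RAG2 differed by 0.33 (95% interval -0.63 to 1.30, limma adjusted p = 0.615), and by -0.36 without the first control vehicle array. The repair genes ranged from -0.37 for XRCC6 to 0.69 for XRCC4, with LIG4 at 0.28, NHEJ1 at 0.25, PRKDC at 0.17, XRCC5 at 0.11 and DCLRE1C at -0.10. The median of the 10 was 0.14, and that of all clusters -0.16. BLNK, beside DNTT, passed the test here (5.95 and 6.55 with vehicle, 4.73 and 4.71 with prednisolone, log2 -1.53, limma adjusted p = 0.0446).

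On the arrays labelled BTG1 shRNA limma called 0 of the 10 genes and 0% of all clusters, and 0 members had an unadjusted p below 0.05. DNTT differed by -0.00 (95% interval -0.66 to 0.66), RAG1 by 0.14 (95% interval -0.24 to 0.53) and RAG2 by 0.22 (95% interval -0.74 to 1.18). LIG4, XRCC5 and RAG1 were the 3 members without overlap, against 28.5% of all clusters, at 0.31, -0.32 and 0.14, and 0 members passed 2-fold, against 0.213% of all clusters. NR3C1, the glucocorticoid receptor gene, stood at 9.72, 10.24, 10.63 and 10.90 on the control arrays and at 7.77, 7.12, 7.25 and 7.25 on the arrays labelled BTG1 shRNA, and its part in these values was not tested. The prednisolone effect was not shown to differ between the shRNAs for any of the 10 genes. limma called 0 members, and 0.134% of all clusters, for that difference. It was 1.28 for DNTT (SE 0.40, unadjusted p = 0.0138, limma adjusted p = 0.440, 95% interval 0.35 to 2.22) and -1.03 for XRCC4 (limma adjusted p = 0.546), the 2 members past 2-fold, against 9.51% of all clusters. The 2 treatment comparisons subtract different arrays, but both use a spread estimated from all 8 arrays and are therefore not independent. Each also shares arrays with both comparisons between shRNAs.

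**Figure D3:**
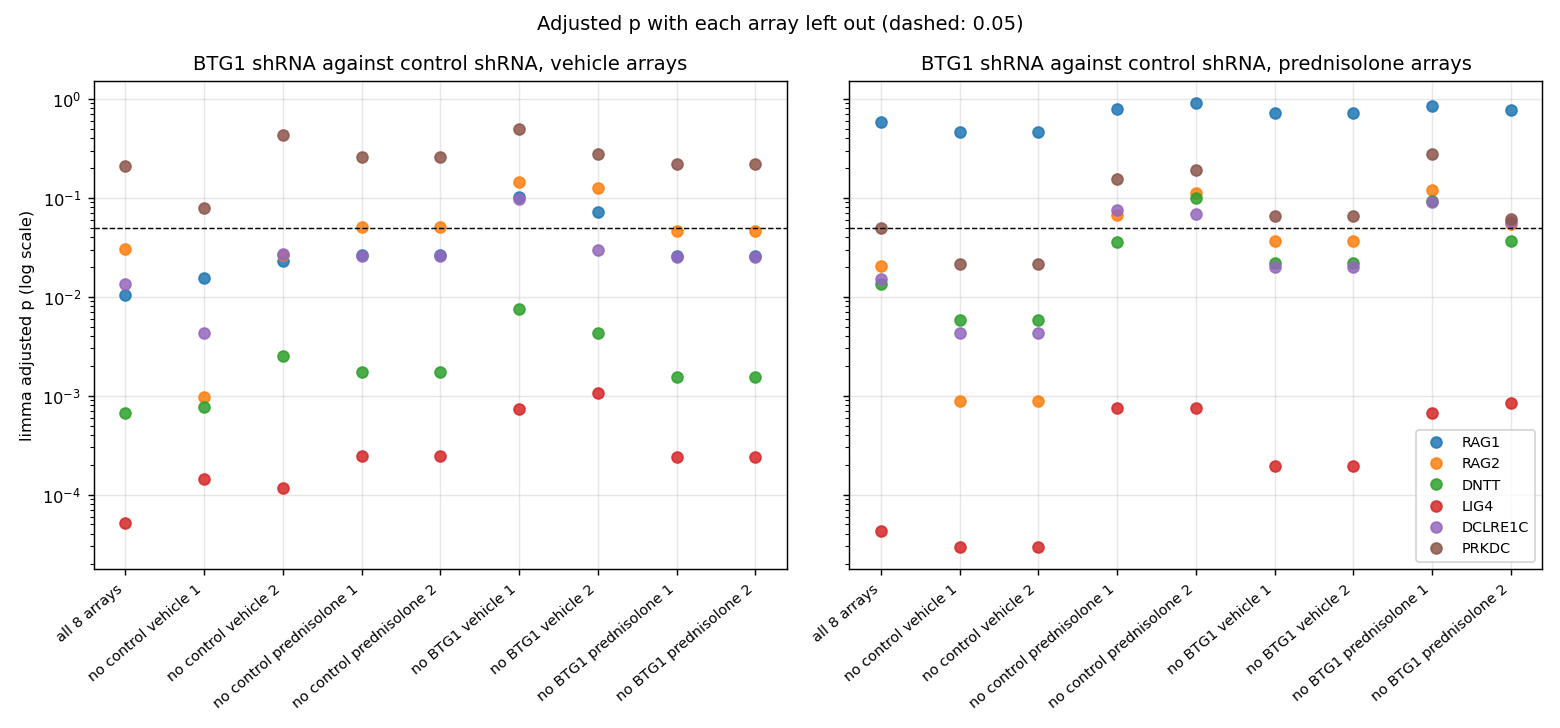
limma adjusted p (log axis) of the 6 genes called in either comparison between shRNAs, with all 8 arrays and with each array left out in turn; the dashed line marks 0.05. LIG4 stays at or below 0.0011 in every case, while PRKDC under prednisolone lies above the line in 6 of 8 cases.

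Among 22 genes known to regulate RAG transcription, 4 were called higher and 9 lower on the arrays labelled BTG1 shRNA under vehicle, where all clusters gave 8.46% and 6.21%. Under prednisolone 5 were called higher and 7 lower, where all clusters gave 10% and 7.51%. The list's median difference was -0.48 and 0.00, beside -0.15 and 0.04 over all clusters. The lower ones were led by B-lineage factors. EBF1 lay between 10.05 and 10.48 on the control arrays and between 4.29 and 4.78 on the others (log2 -5.93 under vehicle and -5.55 under prednisolone), and PAX5 between 9.34 and 10.16 against 4.06 and 4.52 (log2 -5.74 and -5.18). IRF4, which acts at the pre-B stage, was lower by a log2 difference of -4.51 and -3.88. SPI1 (log2 -3.11 and -2.10), IRF8 (log2 -2.11 and -1.31) and TCF3 (log2 -0.88 and -0.83) were also called lower under both treatments. BACH2 (log2 -0.61) and FOXP1 (log2 -0.96) were called lower under vehicle only. The calls of TCF3, BACH2 and FOXP1, and that of IRF8 under prednisolone, were lost in some alternative settings. FOXO1, an activator of RAG1 and RAG2 in B-cell precursors that is named here after its values were seen, was 2.19-fold and 2.37-fold lower (log2 -1.13 and -1.25), a vehicle call lost at an adjusted p of 0.0506 in 1 of 16 alternative settings, without the second array labelled BTG1 shRNA with vehicle. The higher ones under both treatments included GATA3, a T-lineage factor (log2 2.63 and 2.93), and IKZF3 (log2 2.44 and 2.70). SATB1 (log2 3.56 and 2.74) and ETS1 (log2 2.08 and 0.90) were the others, joined by RUNX1 under prednisolone (log2 0.96). The B-lineage marker sum was lower and the T-lineage marker sum higher on the arrays labelled BTG1 shRNA, and their part in these values was not tested. With prednisolone on the control arrays ETS1 rose, from 7.66 and 8.10 to 9.11 and 9.17 (log2 1.26, limma adjusted p = 0.0336), a call that held in 6 of 16 alternative settings, with adjusted p up to 0.300, and was lost without the first control vehicle array, either control prednisolone array or any array labelled BTG1 shRNA.

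The 5 other lists of recombinase cofactors and break repair, 54 genes in all, had 8 genes called under vehicle, 14.8% against 14.7% of all clusters. Under prednisolone they had 12, 22.2% against 17.5% of all clusters. Of 6 measured cofactors and turnover factors of the recombinase, the cluster of DCAF1, a ubiquitin ligase receptor that binds RAG1, was higher under vehicle (log2 0.81, limma adjusted p = 0.0260) and prednisolone (log2 1.50, limma adjusted p = 0.00134). That cluster is also annotated to RBM15B. HMGB2, which bends DNA for the recombinase, was lower under prednisolone (log2 -1.87, limma adjusted p = 0.0293). Of 13 further end-joining and end-processing genes, 3 were higher and 0 lower under vehicle, and 2 were higher and 2 lower under prednisolone. POLB, a gap-filling polymerase of base excision repair, was higher in both (log2 2.71 and 2.00), and TDP2 (log2 1.10) and DNTTIP1 (log2 0.93) under vehicle. Under prednisolone POLM, a polymerase related to TdT, was higher (log2 1.55, limma adjusted p = 0.00807), and CYREN, an inhibitor of end joining, was lower (log2 -1.94, limma adjusted p = 0.00155), as was POLL (log2 -0.82).

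The break-sensing list and the homologous recombination list each had 14.3% of their genes called under each treatment. All clusters gave 14.7% under vehicle and 17.5% under prednisolone, so neither list stood out by its count. Of 14 break-sensing genes RNF168, a ubiquitin ligase at broken chromatin, was higher under vehicle (log2 2.27, limma adjusted p = 0.00230) and prednisolone (log2 2.09, limma adjusted p = 0.00304). RNF8 was higher under vehicle (log2 0.84) and NBN lower under prednisolone (log2 -1.64). In the alternative end-joining pathway 0 of 7 genes were called under vehicle. Under prednisolone PARP1 was lower (log2 -1.21) and the cluster of FEN1, shared with FADS2, higher (log2 0.81). Of 14 homologous recombination genes, RAD51C (log2 1.21) and RAD54L (log2 0.70) were higher under vehicle, and XRCC2 (log2 -1.34) and BARD1 (log2 -1.08) lower under prednisolone. Over the 7 lists, 10 of the 22 calls under vehicle and 11 of the 24 under prednisolone held in every alternative setting. Among the repair genes named here this applied to RNF168 in both, and to DCAF1 and CYREN under prednisolone. Of the other vehicle calls, RAD54L held in 3 of 16 alternative settings, and DNTTIP1 and RNF8 in 6. TDP2 and RAD51C held in 8, DCAF1 in 9 and POLB in 13. Under prednisolone POLB and FEN1 held in 8, and the other named repair genes in more. Leaving out the first control vehicle array changed the number of calls in most of the 7 lists under at least 1 treatment. That fit leaves 1 array in the control vehicle group, and the number called over all clusters also changed when single arrays were left out.

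**Figure D4:**
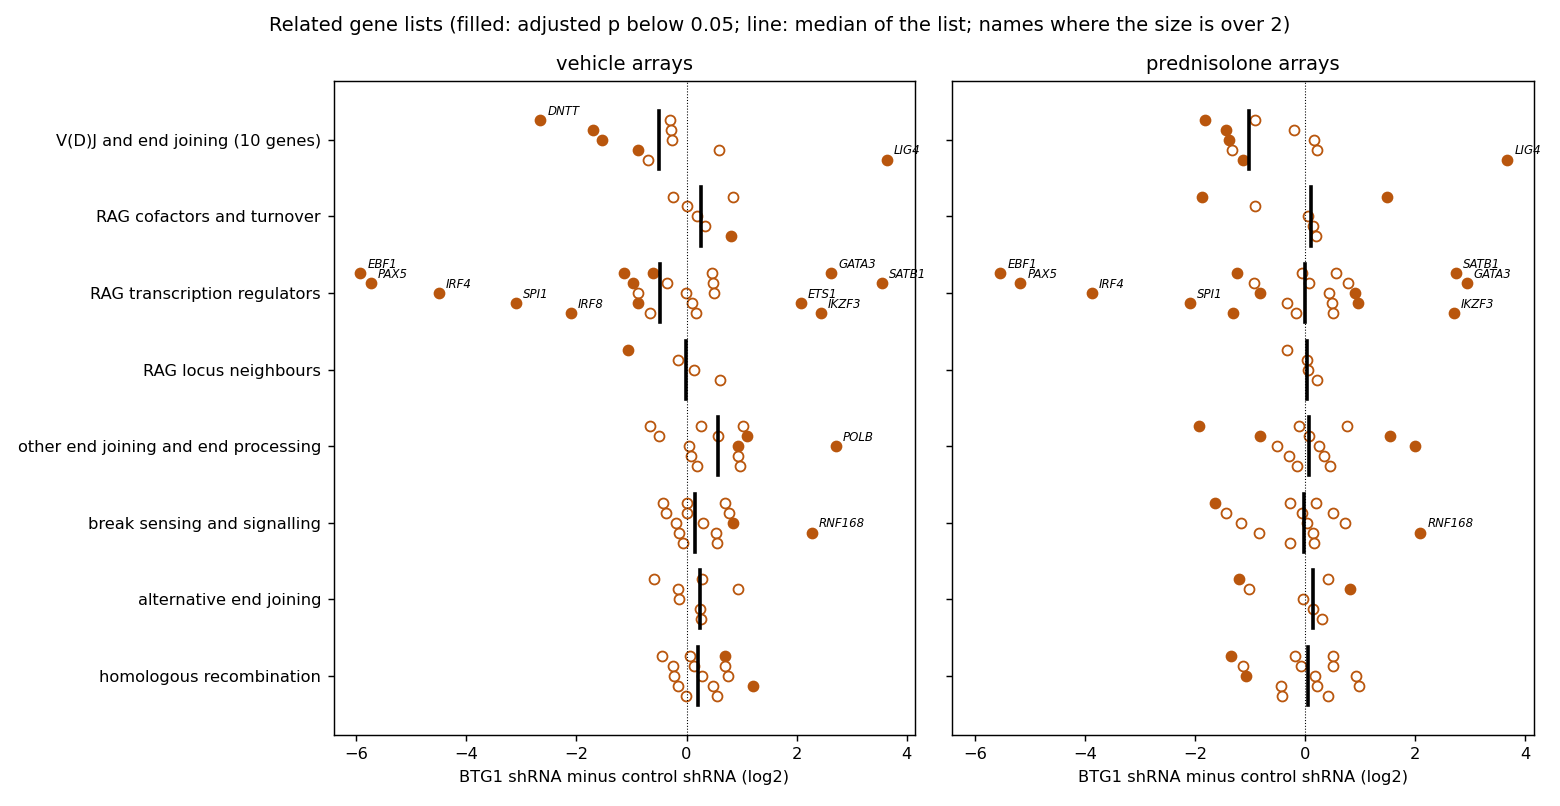
Log2 difference between arrays labelled BTG1 shRNA and control arrays for each measured gene of the 10 members and of 7 related lists, under vehicle (left) and prednisolone (right); filled points passed the limma threshold of 0.05 and bars are list medians. The member median lies at -0.50 on the left and -1.02 on the right, with LIG4 far to the right of it in both.

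The clusters most like each called member were ranked by Pearson's r over the 8 arrays among 14431 other clusters with 1 gene symbol. The arrays fall into 2 blocks of 4 by shRNA label, which all these genes share, so r is a description of profile shape only. For RAG1 the nearest was IL1B, an inflammatory cytokine (r = 0.988), at 7.96 and 8.37 on control vehicle arrays, 4.91 and 5.03 with prednisolone and 3.18 to 3.62 on the arrays labelled BTG1 shRNA. PRICKLE2, CLVS1, TLR10 and SPIB followed. DNTT was nearest to STS, steroid sulfatase (r = 0.986), then to GBP4, LBH, F2R and ZNF165. LBH, for example, stood at 10.26 and 10.37 on control vehicle arrays, 8.24 and 8.81 with prednisolone and 6.07 to 6.36 on the others. Like RAG1 and DNTT, both example genes had their highest pair on the control vehicle arrays and an intermediate pair with prednisolone.

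For RAG2 the nearest clusters were AFDN, a junctional scaffold (r = 0.990), PTK2, FAM107B, ZNF180 and RIC1, and AFDN, like RAG2, had its lowest control level, 5.55, on the first control vehicle array. DCLRE1C was nearest to ASPH (r = 0.995), then PITPNC1, PHLPP1, SMC1A and OFD1, and PRKDC to ATF7IP (r = 0.993), then TEX10, R3HCC1L, RBL1 and CHD9. LIG4 was nearest to CSRNP2 (r = 0.997), which lay between 5.96 and 6.55 on the control arrays and between 8.59 and 9.01 on the others, then to CCDC25, INPP4A, MYH10 and FBXO25. No gene was on the list of 5 of more than 1 member.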

How the data were processed

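Total RNA of 8 samples was hybridised to Affymetrix exon arrays and summarised over core meta-probe sets on hg18, per the labels. Per the submitters' processing notes, RMA and Partek were used (versions: not given in the sources used here). Each deposited score of a transcript cluster is a log2 expression value by the authors that lost most decimal points: of 143048 values, 153 kept one, between 2.47 and 12.25. Points were restored behind digit 1, or behind digit 2 for the 2831 values beginning with 1. Correlations between arrays were 0.446 to 0.587 as deposited and 0.872 to 0.995 after restoring. A plain log2 table had been assumed when the tests were chosen, and they were kept.

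limma 3.58.1 in R 4.3.3 fitted 4 group means to all 17881 clusters without a filter (4 residual and 3.51 prior degrees of freedom), with two-sided tests and Benjamini-Hochberg adjustment per contrast. The number of arrays limits the precision. On simulated data with 200 changed clusters, log2 changes of 1, 2 and 4 were recovered in 36%, 97% and 100% of cases for prednisolone on control arrays, and in 28%, 94% and 100% for the shRNAs under vehicle, but in 10%, 74% and 100% for the difference of effects. The shRNA contrast under vehicle itself called 2623 clusters and the difference of effects 24, neither near 200, so the simulated shares need not hold for them. The simulated noise was independent between arrays, whereas same-numbered arrays shared part of their spread. A gene took its cluster with the highest mean. All members are reported, and of other lists up to 4 called genes per contrast with the smallest p. Between the shRNAs, the RAG regulators named other than EBF1, PAX5, IRF4 and GATA3 were added after their values were seen, as were genes beside the members. Members and lists were chosen with earlier results of these data known. Upstream sequences came from RefSeq on GRCh38.p14. Alternatives were quantile normalization, centring, a dim filter, array weights, trended variance, compared groups alone, a replicate block, gene means and leaving out each array.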

Additional observations from a re-analysis of the deposited data

How the results depend on the processing

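The 10 genes gave 785 values in 16 alternative settings, of which 716 kept direction and side of the threshold, 29 lost a call, 14 gained one and 26 changed sign, all 26 without a call on either side. With array medians centred the called members fell to 3 under vehicle and 3 under prednisolone, and in fits of the compared groups alone to 3 under vehicle. Leaving out single arrays gave 2 to 5 and 1 to 6.

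The labels give the arrays only a shared number across groups. Same-numbered deviations still correlated over clusters, except between control prednisolone and BTG1 shRNA with vehicle (0.0072). The correlation was 0.561 between the control groups and 0.263 between the groups labelled BTG1 shRNA. It was 0.425 between the vehicle groups, 0.415 between the prednisolone groups, and 0.593 between control vehicle and BTG1 shRNA with prednisolone. Same-numbered arrays thus shared part of their spread, and its source was not tested. With the replicate block the called members were 1 for prednisolone on control arrays (DNTT, limma adjusted p = 0.0094), 6 between shRNAs under vehicle (PRKDC, limma adjusted p = 0.0495) and 7 under prednisolone (XRCC4, limma adjusted p = 0.0100, and NHEJ1, limma adjusted p = 0.0224).

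Signs turned with quantile normalization for PRKDC with prednisolone on control arrays (-0.017) and LIG4 in the difference of effects (-0.069), and with centring for LIG4 (-0.14) and DCLRE1C (-0.078) in that difference and DCLRE1C on control arrays (0.027). Leaving out single arrays, prednisolone on control arrays ranged from -0.36 to 1.03 for RAG2, -0.22 to 0.55 for PRKDC, -0.15 to 0.37 for XRCC5 and -0.50 to 0.30 for DCLRE1C. On the arrays labelled BTG1 shRNA it ranged from -0.20 to 0.20 for DNTT, -0.29 to 0.28 for DCLRE1C, -0.90 to 0.22 for XRCC4 and -0.57 to 0.019 for PRKDC. The difference of effects ranged from -0.82 to 0.58 for RAG2, -0.24 to 0.31 for LIG4 and -0.31 to 0.50 for DCLRE1C. Between shRNAs, XRCC4 under vehicle ranged from -0.66 to 0.057 and XRCC5 under prednisolone from -0.10 to 0.42. The cause was not tested.

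Over all clusters, prednisolone on control arrays called 271, and 16 to 755 in the other settings with all arrays or 40 to 770 with 1 left out. Between shRNAs the counts were 2623 under vehicle (1892 to 4553, or 1289 to 5958) and 3134 under prednisolone (2843 to 4321, or 1746 to 3891). The difference of effects called 24 (11 to 96, or 0 to 24). XRCC6 dropped out with the dim filter, and the difference of effects could not be fitted on compared groups alone. Array medians differed by 0.17 in the difference of effects and by less in the other contrasts, which centring removes.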
